A study of Mus musculus with 9 samples.

Results

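The type 2 chemokines and their receptors were followed here as 9 genes, taken from a lung RNA-seq table by gene symbol: the CCR3 ligands Ccl11 and Ccl24 with Ccr3, the CCR4 ligands Ccl17 and Ccl22 with Ccr4, and the CCR8 ligands Ccl8 and Ccl1 with Ccr8. All 9 symbols were found, each once, among the 34638 genes of the table. Lung RNA came from 9 wild-type C57BL/6 mice, 3 in each of 3 groups. IL-33 mice received 4 doses of 0.5 µg recombinant mouse IL-33 (rmIL-33) into the trachea, given daily from day 0 to day 3, and PBS mice received phosphate buffered saline instead. IL-33+LM8 mice received the same IL-33 after an intraperitoneal injection of LM8, an inhibitor of the adaptor MyD88, at 10 mg/kg. The methods of the study give female mice of 6 to 8 weeks, with lungs taken on day 4, for the PBS and IL-33 groups. No age, sex or sampling day is given for the IL-33+LM8 mice, and there was no group given LM8 alone, so an action of LM8 on unchallenged lung cannot be told apart from an action on the response to IL-33.

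Chemokines are small secreted proteins that direct leukocytes through G protein-coupled receptors. CCL11 (eotaxin-1) and CCL24 (eotaxin-2) attract eosinophils through CCR3, CCL17 (TARC) and CCL22 (MDC) attract Th2 and regulatory T cells through CCR4, and mouse CCL8 and CCL1 attract Th2 cells through CCR8. IL-33 is an alarmin of the airway epithelium. It signals through the receptor ST2, encoded by Il1rl1, and the adaptor MyD88 in group 2 innate lymphoid cells, mast cells, eosinophils and T cells, and the cytokines of these cells act on chemokine genes through factors such as STAT6.

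Genes of all 3 ligand and receptor sets were higher after IL-33, and the mice given LM8 differed from the IL-33 mice in some of them. All 9 genes were higher in IL-33 than in PBS lungs, with mean FPKM between 12.2-fold higher for Ccr4 and 268-fold higher for Ccl24 among the 8 genes with counts in PBS lungs. In IL-33+LM8 lungs, Ccr3, Ccl24, Ccl8 and Ccr8 were lower than in IL-33 lungs, by 8.01-fold, 4.09-fold, 2.78-fold and 2.27-fold of mean FPKM. Mean FPKM of Ccl11 and Ccl17 in IL-33+LM8 lungs was 1.07 and 1.12 times that of IL-33 lungs, and neither these nor Ccr4, Ccl22 and Ccl1 were called.

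FPKM is the read count divided by gene length and library size, so that levels of different genes can be compared. Fold multiples are ratios of mean FPKM. Fitted log2 fold changes come from edgeR's quasi-likelihood test on the counts, with Benjamini-Hochberg adjustment over all genes tested (edgeR adjusted p). A gene was called higher or lower at an adjusted p under 0.05 with a log2 fold change of at least 1 in size. Between 53877663 and 90607218 reads per mouse were counted on genes. A two-sided exact permutation test on 3 mice a group has 0.1 as its smallest p, which it gave wherever the groups were apart. The lung label was checked with 6 epithelial markers, which were abundant in every mouse, with summed FPKM of 34000 to 36941 in PBS, 15411 to 16608 in IL-33 and 28714 to 31126 in IL-33+LM8 lungs. Of these 6, Sftpc, Scgb1a1 and Hopx were called lower with IL-33 and Hopx was called higher with LM8. In bulk lung RNA, fewer cells of a type and less RNA per cell cannot be told apart.

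Of all genes tested, 9.94% were called higher and 5.83% lower in IL-33 against PBS, where 9 of the 9 chemokine and receptor genes were called higher. IL-33 and PBS mice did not overlap in FPKM for 9 of the 9, and for 56.3% of all genes tested. Between IL-33+LM8 and IL-33, 1.32% of all genes were called higher and 3.48% lower, and of the 9 genes 4 were called lower. None of the 9 was higher by edgeR at an unadjusted p under 0.05, and none was called higher by any alternative test. The groups did not overlap for 5 of the 9, and for 38.2% of all genes. Against PBS, 9 of the 9 were called higher in IL-33+LM8 lungs, where 5.2% of all genes were higher and 1.67% lower, and the groups were apart for 9 of the 9 and for 42.2% of all genes. Ccl1 passed the filter on low counts only through the mice given IL-33, since it had 0 counts in the PBS mice, so that it could only be higher or uncalled against PBS. The 3 comparisons share mice, so their counts are not independent of each other.

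**Figure D1:**
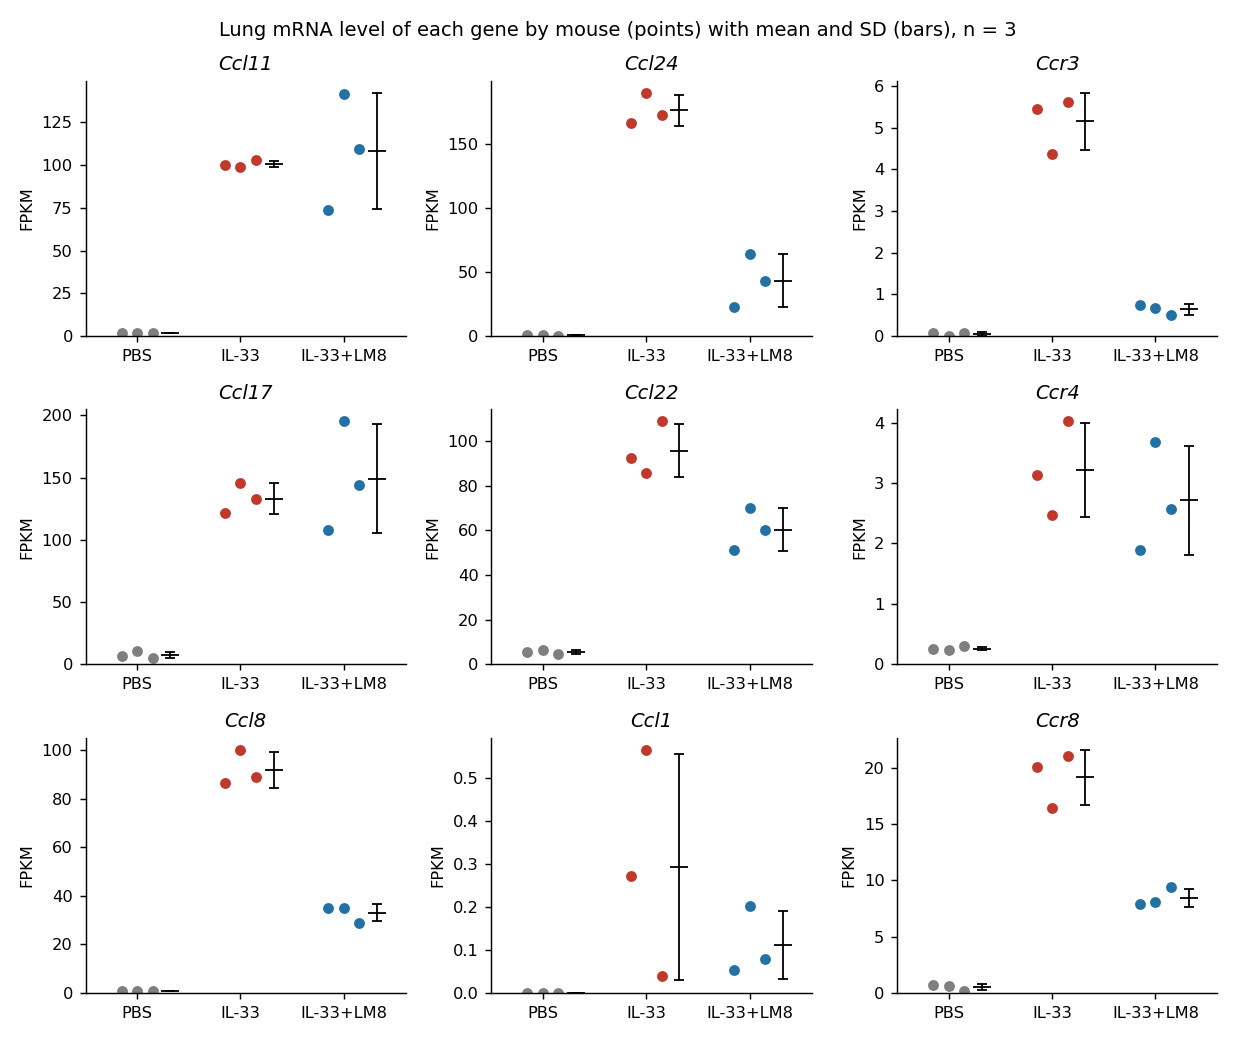
FPKM (y axis, linear, 1 panel per gene) of the 9 genes in each mouse by group (x axis), points being mice and bars the mean and SD over 3 mice. PBS points lie near 0 beside the IL-33 points for every gene, and IL-33+LM8 points lie below the IL-33 points for Ccl24, Ccr3, Ccl22, Ccl8 and Ccr8, while they overlap them for Ccl11, Ccl17, Ccr4 and Ccl1.

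The eotaxins were nearly silent in PBS lungs and among the most abundant chemokine mRNAs after IL-33. Ccl11 (ENSMUSG00000020676, chromosome 11, plus strand) was at 1.46, 1.83 and 1.77 FPKM in PBS replicates 1, 2 and 3, at 100.4, 99.2 and 103 in the IL-33 mice, and at 73.9, 142 and 109.6 in the IL-33+LM8 mice. All 6 mice given IL-33 were far above the PBS mice. The 3 IL-33+LM8 mice lay on both sides of the IL-33 mice, with replicate 1 below them and replicates 2 and 3 above. The log2 fold change of Ccl11 was 5.90 (standard error 0.10, edgeR adjusted p = 9e-07) with IL-33 and 6.04 (standard error 0.28, edgeR adjusted p = 4.2e-05) with IL-33 and LM8, both against PBS. Between IL-33+LM8 and IL-33 it was 0.12 (standard error 0.21, edgeR adjusted p = 0.77, 95% interval -0.38 to 0.61), so that a fall by a log2 value of 1 lay outside the interval. Without IL-33+LM8 replicate 2 this value changed sign, to -0.12. Its coefficient of variation was 1.85% among the IL-33 mice and 31.3% among the IL-33+LM8 mice.

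Ccl24 (ENSMUSG00000004814, chromosome 5, minus strand) had the highest level of the 9 genes in IL-33 lungs. Its FPKM was 0.732, 0.875 and 0.361 in the PBS mice, 166, 189.6 and 172 in the IL-33 mice, and 22.4, 63.8 and 42.9 in the IL-33+LM8 mice. The 3 groups did not overlap, and the IL-33+LM8 mice lay between the other groups. With IL-33 the log2 fold change was 8.09 (standard error 0.26, edgeR adjusted p = 2.6e-06). With LM8 it fell by 2.02 from the level in IL-33 mice (standard error 0.34, edgeR adjusted p = 0.006), and it remained 6.08 above PBS (standard error 0.51, edgeR adjusted p = 4e-04). The IL-33+LM8 mice varied more than the IL-33 mice, with coefficients of variation of 48.1% and 6.85%.

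Within a mouse, the balance of the eotaxins differed between the groups. The ratio of Ccl24 to Ccl11 FPKM was 0.502, 0.479 and 0.203 in PBS lungs, 1.66, 1.91 and 1.68 in IL-33 lungs, and 0.303, 0.451 and 0.391 in IL-33+LM8 lungs. Ccl24 was thus the more abundant transcript in every IL-33 mouse and the less abundant in the other 6 mice. The mean log2 ratio differed by 2.25 between IL-33 and PBS and by -2.21 between IL-33+LM8 and IL-33 (two-sided exact permutation test, p = 0.1 for each, Benjamini-Hochberg adjusted p = 0.175 over the 7 ratio comparisons made), and by 0.04 between IL-33+LM8 and PBS (exact permutation p = 1). The ratios were chosen after the values were seen.

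Macrophage, fibroblast and endothelial markers are given beside the eotaxins, as cells known to make them. Of 8 interstitial macrophage markers, 7 were called higher with IL-33 and 4 lower with LM8 (Ms4a7 and the complement genes C1qa, C1qb and C1qc), and 6 stayed higher than in PBS. Their summed FPKM was 189 to 202 in PBS, 536 to 569 in IL-33 and 347 to 374 in IL-33+LM8 lungs. Lyve1, at mean FPKM of 123, 79.0 and 149 in these groups, was a large part of the sums. It went the other way under the minimum fold, at -0.63 with IL-33 (edgeR adjusted p = 0.00087) and 0.93 with LM8 (edgeR adjusted p = 2e-04). Cd163 was also at 0.63 with LM8 (edgeR adjusted p = 0.0044). Of 6 alveolar macrophage markers, 3 were called higher and 1 lower with IL-33, then 1 higher and 2 lower with LM8, with sums of 311 to 346, 4174 to 4762 and 1916 to 2272 that were carried mostly by Chil3. Of 8 fibroblast markers, 2 were higher and 1 lower with IL-33 and 2 were lower with LM8 (sums 178 to 190, 231 to 265 and 160 to 161). Col1a1, at mean FPKM of 33.6, 149 and 40.3 in the same order, made up most of the IL-33 sum. With IL-33, Dcn (-0.70), Lum (-0.63), Col13a1 (-0.82) and Tcf21 (-0.75) were lower by less than the minimum fold (edgeR adjusted p of 8.9e-05 to 0.021). With LM8, Pdgfra (0.61), Tcf21 (0.68), Col13a1 (0.50) and Pi16 (0.55) were higher under that fold (edgeR adjusted p of 0.00029 to 0.019). Of 5 endothelial markers, Cdh5 and Tek were lower with IL-33 and 0 were called with LM8 (sums 612 to 690, 405 to 446 and 615 to 630.1). None of these markers was at 0 in all mice of a group, and their part in the eotaxin values was not tested.

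Ccr3 (ENSMUSG00000035448, chromosome 9, plus strand), the eotaxin receptor of eosinophils, showed the steepest difference between IL-33 and IL-33+LM8 lungs of the 9 genes. It was at 0.0744, 0 and 0.0772 FPKM in the PBS mice, from counts of 16, 0 and 20, and whether the listed 0 means that no read was sequenced is not stated. The IL-33 mice had 5.45, 4.37 and 5.62 FPKM, and the IL-33+LM8 mice 0.750, 0.678 and 0.500. The groups did not overlap, and the IL-33+LM8 mice lay between the others. Ccr3 had a log2 fold change of 6.61 with IL-33 (standard error 0.73, edgeR adjusted p = 0.00035) and fell by 2.99 between IL-33 and IL-33+LM8 (standard error 0.19, edgeR adjusted p = 0.00017).

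The remaining difference of Ccr3 from PBS was less certain. Its log2 fold change in IL-33+LM8 against PBS was 3.65 (standard error 0.93, edgeR adjusted p = 0.03), from mean levels of 0.643 ± 0.129 and 0.0505 ± 0.0438 FPKM (SD, n = 3 each). The call was lost without PBS replicate 1 (log2 fold change 4.01, edgeR adjusted p = 0.076) and without IL-33+LM8 replicate 1, 2 or 3 (3.53, 3.60 and 3.80, with edgeR adjusted p = 0.072, 0.086 and 0.06). Over all alternatives the adjusted p lay between 2e-05 and 0.086. On annotated mouse transcripts, 17 of the 3242 stretches of 31 bases in Ccr3 (0.524%) also occur in the neighbouring receptor gene Ccr1, and how such reads were counted is not given in the sources used here.

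Eosinophil markers moved with Ccr3. Of 8 markers, 7 were called higher with IL-33, the exception being Ear1, and 7 were called lower with LM8, the exception being Prg3. Against PBS, 2 stayed higher in IL-33+LM8 lungs (Epx and Prg2, which encode eosinophil granule proteins) and Ear1 was lower. The summed FPKM of the list was 102 to 115 in PBS, 586 to 643 in IL-33 and 142 to 177 in IL-33+LM8 lungs. These sums were carried mostly by Ear2, at mean FPKM of 83.2, 553 and 145 in the same order. Epx was at 0 counts in all PBS mice, at 177 to 193 counts in the IL-33 mice and at 16 to 63 in the IL-33+LM8 mice. It passed the filter on low counts only through the mice given IL-33, so that it could only be higher or uncalled against PBS. The part of eosinophil number in the Ccr3 values was not tested.

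The promoter of Ccr3 is shown because it is the gene with the largest difference under LM8. It covers chr9:124021721-124022020 on the plus strand of GRCm38.p6, from 250 bases before to 50 bases after the RefSeq start, and the capitals mark a match to the NF-kB site on the minus strand, at -179 to -170 from the start.
Ccr3: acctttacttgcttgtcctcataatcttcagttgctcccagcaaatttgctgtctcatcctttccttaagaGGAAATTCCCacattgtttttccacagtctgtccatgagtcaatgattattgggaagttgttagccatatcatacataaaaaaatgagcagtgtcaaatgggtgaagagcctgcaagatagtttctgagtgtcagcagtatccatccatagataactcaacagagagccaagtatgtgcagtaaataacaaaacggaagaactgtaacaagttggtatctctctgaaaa
Of all 32851 RefSeq promoters of this length, 8.46% hold such a match on either strand. The deposited table gives coordinates that are not those of GRCm38, so positions here are those of the RefSeq table only. Ccl11 and Ccl24 had no entry in it.

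Ccl17 and Ccl22, the CCR4 ligands, lie close together on chromosome 8 with only Cx3cl1 between them, and they were the most abundant of the 9 transcripts in PBS lungs. Ccl17 (ENSMUSG00000031780, plus strand) was at 7.02, 10.6 and 5.45 FPKM in the PBS mice, at 121, 145 and 133 in the IL-33 mice, and at 108, 195 and 144 in the IL-33+LM8 mice. The IL-33+LM8 mice again spanned the IL-33 mice, and replicate 1 was again the lowest of them. Its log2 fold change was 4.12 with IL-33 (standard error 0.24, edgeR adjusted p = 2.1e-05) and 4.31 with IL-33 and LM8 (standard error 0.32, edgeR adjusted p = 0.00025), both against PBS. Between IL-33+LM8 and IL-33 it was 0.18 (standard error 0.20, edgeR adjusted p = 0.62, 95% interval -0.30 to 0.65), and -0.063 without IL-33+LM8 replicate 2.

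Ccl22 (ENSMUSG00000031779, plus strand) had the same fitted change with IL-33 as Ccl17 and lay lower in the IL-33+LM8 mice. It was at 5.60, 6.32 and 4.75 FPKM in the PBS mice, at 92.5, 85.7 and 109 in the IL-33 mice, and at 51.0, 70.0 and 60.0 in the IL-33+LM8 mice. The 3 groups did not overlap. With IL-33 its log2 fold change was 4.12 (standard error 0.14, edgeR adjusted p = 3.4e-06). Between IL-33+LM8 and IL-33 it was -0.65 (standard error 0.14, edgeR adjusted p = 0.016, 95% interval -0.98 to -0.33), which passed the p threshold and missed the minimum fold, and against PBS it was 3.48 (standard error 0.16, edgeR adjusted p = 3.9e-05).

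The ratio of Ccl22 to Ccl17 FPKM was 0.797, 0.594 and 0.870 in PBS lungs, 0.763, 0.589 and 0.819 in IL-33 lungs, and 0.472, 0.359 and 0.417 in IL-33+LM8 lungs. The PBS and IL-33 mice overlapped throughout, and the IL-33+LM8 mice were below all of them. The mean log2 ratio differed by -0.05 between IL-33 and PBS (two-sided exact permutation p = 0.7, adjusted 0.933), by -0.79 between IL-33+LM8 and IL-33 and by -0.85 between IL-33+LM8 and PBS (exact permutation p = 0.1, adjusted 0.175, for each).

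**Figure D2:**
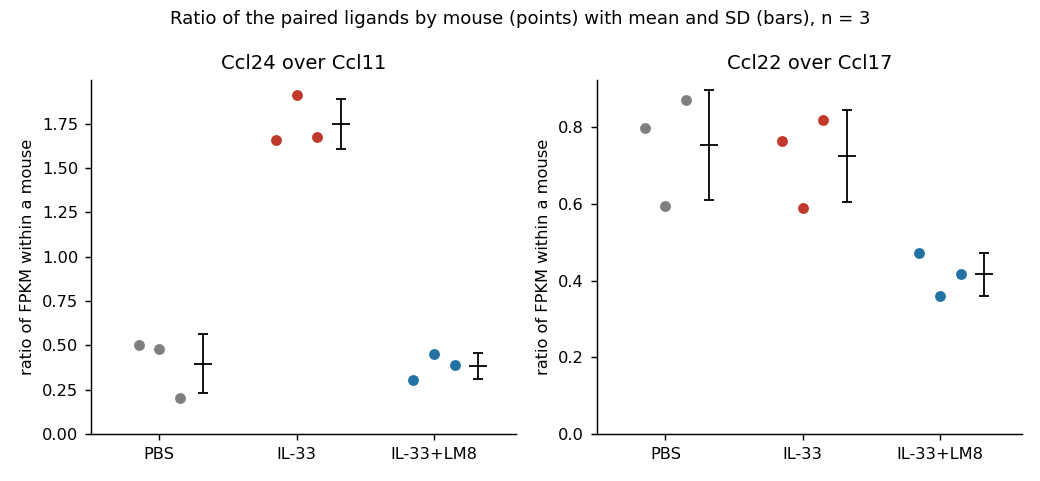
Ratio of FPKM (y axis, linear from 0) of Ccl24 to Ccl11 and of Ccl22 to Ccl17 within each mouse, by group (x axis), with the mean and SD over 3 mice as bars. The Ccl24 to Ccl11 ratio is above 1 in the 3 IL-33 mice only, and the Ccl22 to Ccl17 ratio is lower in the 3 IL-33+LM8 mice than in the other 6.

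The promoters of Ccl17 and Ccl22 are shown side by side because these neighbouring ligands both rose with IL-33 while their ratio was lowest in the IL-33+LM8 mice. They cover chr8:94810203-94810502 and chr8:94745434-94745733, both on the plus strand of GRCm38.p6. In Ccl17 the capitals mark, from the start outwards, a general STAT site at -99 to -91 (TTC and GAA with 3 bases between them) and a STAT6 site at -154 to -145 (TTC and GAA with 4 bases between them). In Ccl22 no motif searched matched, so it has no capitals.
Ccl17: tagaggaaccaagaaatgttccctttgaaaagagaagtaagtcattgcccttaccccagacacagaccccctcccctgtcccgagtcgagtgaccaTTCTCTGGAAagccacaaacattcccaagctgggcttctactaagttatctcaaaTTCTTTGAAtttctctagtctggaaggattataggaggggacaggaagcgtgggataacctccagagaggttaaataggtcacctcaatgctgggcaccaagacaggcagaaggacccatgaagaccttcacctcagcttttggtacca
Ccl22: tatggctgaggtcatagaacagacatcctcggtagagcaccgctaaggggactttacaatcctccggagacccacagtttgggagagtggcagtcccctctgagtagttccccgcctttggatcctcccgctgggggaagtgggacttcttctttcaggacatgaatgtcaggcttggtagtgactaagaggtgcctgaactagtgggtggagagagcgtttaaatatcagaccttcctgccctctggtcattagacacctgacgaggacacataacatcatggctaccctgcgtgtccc
Of all promoters, 6.95% hold the STAT6 site and 8.3% the general STAT site. These are matches of letters in 1 window and not measured binding.

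Dendritic cells are a known source of both CCR4 ligands. Of 6 markers of mature dendritic cells, 5 were called higher with IL-33 and 3 lower with LM8 (Fscn1, Cacnb3 and Il4i1), and 2 stayed higher than in PBS. Their summed FPKM was 36.1 to 41.9 in PBS, 92.3 to 107 in IL-33 and 55.0 to 62.9 in IL-33+LM8 lungs. Of 8 markers of conventional dendritic cells, 5 were higher with IL-33 and 5 in IL-33+LM8 against PBS, and 0 were called between IL-33+LM8 and IL-33 (sums 42.7 to 45.6, 122 to 131 and 99.0 to 114). With IL-33, Clec9a (-0.72, edgeR adjusted p = 0.00056) and Zbtb46 (-0.44, edgeR adjusted p = 0.0013) were lower by less than the minimum fold. Mgl2 made up most of the sums in IL-33 and IL-33+LM8 lungs (mean FPKM of 87.3 and 69.6). None of the markers of either list was at 0 in a whole group. Their part in the Ccl17 and Ccl22 values was not tested.

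Ccr4 (ENSMUSG00000047898, chromosome 9, minus strand), the receptor of CCL17 and CCL22, was at 0.248, 0.241 and 0.299 FPKM in the PBS mice, at 3.13, 2.47 and 4.03 in the IL-33 mice, and at 1.89, 3.67 and 2.58 in the IL-33+LM8 mice. The groups given IL-33 overlapped each other and lay above the PBS mice. Its log2 fold change was 3.61 with IL-33 (standard error 0.24, edgeR adjusted p = 3.5e-05) and 3.40 with IL-33 and LM8 (standard error 0.29, edgeR adjusted p = 4e-04), and between these groups it was -0.23 (standard error 0.28, edgeR adjusted p = 0.64, 95% interval -0.88 to 0.42). A fall by a log2 value of 1 was thus outside the interval. Of the 3010 stretches of 31 bases in Ccr4, 27 (0.897%) occur in other genes as well.

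The CCR8 ligands differed widely in level. Ccl8 (ENSMUSG00000009185, chromosome 11, plus strand) was at 0.800, 0.812 and 0.924 FPKM in the PBS mice, at 86.7, 100.1 and 88.9 in the IL-33 mice, and at 35.2, 35.0 and 28.9 in the IL-33+LM8 mice. Each group was tight and apart from the others. The log2 fold change was 6.74 with IL-33 (standard error 0.11, edgeR adjusted p = 9e-07). It fell by 1.47 between IL-33 and IL-33+LM8 (standard error 0.10, edgeR adjusted p = 0.00024) and was 5.30 in IL-33+LM8 against PBS (standard error 0.16, edgeR adjusted p = 1.3e-05). Ccl8 and Ccr3 were the genes for which IL-33+LM8 replicate 3 was the lowest mouse of its group, while replicate 1 was the lowest for the other 7.

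The promoter of Ccl8 is shown as that of the CCR8 ligand that was lower with LM8. It covers chr11:82114935-82115234 on the plus strand of GRCm38.p6, and the capitals mark a TATA box (TATAAA) at -32 to -27.
Ccl8: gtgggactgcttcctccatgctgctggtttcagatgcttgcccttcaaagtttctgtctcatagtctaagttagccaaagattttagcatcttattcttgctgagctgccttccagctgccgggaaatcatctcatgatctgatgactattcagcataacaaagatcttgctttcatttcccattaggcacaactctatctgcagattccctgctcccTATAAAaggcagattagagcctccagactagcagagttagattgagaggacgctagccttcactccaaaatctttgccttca
Of all promoters, 13.6% hold TATAAA on either strand. Among the other genes, Ccl1 had overlapping NF-kB matches on both strands at -196 to -187 and -195 to -186, and Ccr4 and Ccr8 had no match to any of the 4 motifs.

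Ccl1 (ENSMUSG00000020702, chromosome 11, minus strand) was the rarest of the 9 transcripts. It had 0 counts in each PBS mouse, 44, 85 and 6 counts in the IL-33 mice (0.271, 0.566 and 0.0404 FPKM), and 8, 32 and 18 counts in the IL-33+LM8 mice (0.0527, 0.202 and 0.0787 FPKM). The groups given IL-33 overlapped, and IL-33 replicate 3 was the lowest of all 6. Against PBS, Ccl1 was called higher in IL-33 lungs (edgeR adjusted p = 0.012) and in IL-33+LM8 lungs (edgeR adjusted p = 0.021). With 0 counts in PBS lungs it could only be higher or uncalled in these tests. The bounds that follow carry no p of their own. They hold only if a listed 0 hides no more than 3 counts, and whether it means that no read was sequenced is not stated. With a floor of 3 counts per PBS library, Ccl1 was at least 16.0-fold higher in IL-33 lungs and at least 6.37-fold higher in IL-33+LM8 lungs. Without IL-33 replicate 2 the former bound was 8.61-fold, and without IL-33+LM8 replicate 2 the latter was 3.69-fold, a check chosen after seeing the data. The call in IL-33+LM8 against PBS was lost without IL-33+LM8 replicate 2 or 3 (edgeR adjusted p = 0.071 and 0.055), and its adjusted p lay between 0.001 and 0.12 over all alternatives. Between IL-33+LM8 and IL-33 the log2 fold change was -1.35 (standard error 0.90, edgeR adjusted p = 0.36, 95% interval -3.48 to 0.77), an interval too wide to place Ccl1 beside Ccl8 or apart from it. The log2 ratio of Ccl8 to Ccl1 differed by -0.52 between these groups (two-sided exact permutation p = 0.8, adjusted 0.933).

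Ccr8 (ENSMUSG00000042262, chromosome 9, plus strand) had the highest mean of the 3 receptors in every group, overlapping Ccr4 in PBS lungs. It was at 0.691, 0.594 and 0.198 FPKM in the PBS mice, at 20.0, 16.4 and 21.0 in the IL-33 mice, and at 7.89, 8.03 and 9.40 in the IL-33+LM8 mice. The groups did not overlap, and the IL-33+LM8 mice lay between the others. With IL-33 its log2 fold change was 5.28 (standard error 0.42, edgeR adjusted p = 8.3e-05). It fell by 1.17 between IL-33 and IL-33+LM8 (standard error 0.13, edgeR adjusted p = 0.001), and was 4.12 in IL-33+LM8 against PBS (standard error 0.43, edgeR adjusted p = 0.00097).

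Lymphocyte markers are given beside Ccr4 and Ccr8, the receptors of Th2 and regulatory T cells. Of 8 general T cell markers, 0 were called in any comparison, with summed FPKM of 22.2 to 23.0 in PBS, 32.5 to 35.8 in IL-33 and 26.8 to 34.7 in IL-33+LM8 lungs; with IL-33, 6 of them had an edgeR adjusted p under 0.05 with a change under the minimum fold. Of 5 regulatory T cell markers, 5 were higher with IL-33, Foxp3 (-1.35 on the log2 scale) and Ctla4 (-1.59) were lower with LM8, and 4 stayed higher than in PBS (sums 4.75 to 6.91, 23.5 to 28.6 and 15.4 to 16.9). Of 8 markers of group 2 innate lymphoid and Th2 cells, 7 were higher with IL-33, Il1rl1 and Il9r were lower with LM8, and 6 stayed higher than in PBS (sums 12.5 to 13.6, 60.5 to 74.9 and 32.6 to 35.3). With LM8, Ikzf2 (-0.96) of the regulatory T cell list and Gata3 (-0.995), Klrg1 (-0.88) and Il5 (-0.86) were lower by less than the minimum fold (edgeR adjusted p of 0.00073 to 0.014). The other uncalled markers had an edgeR adjusted p over 0.05 there. No marker of these lists was at 0 in a whole group, and their part in the receptor values was not tested.

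**Figure D3:**
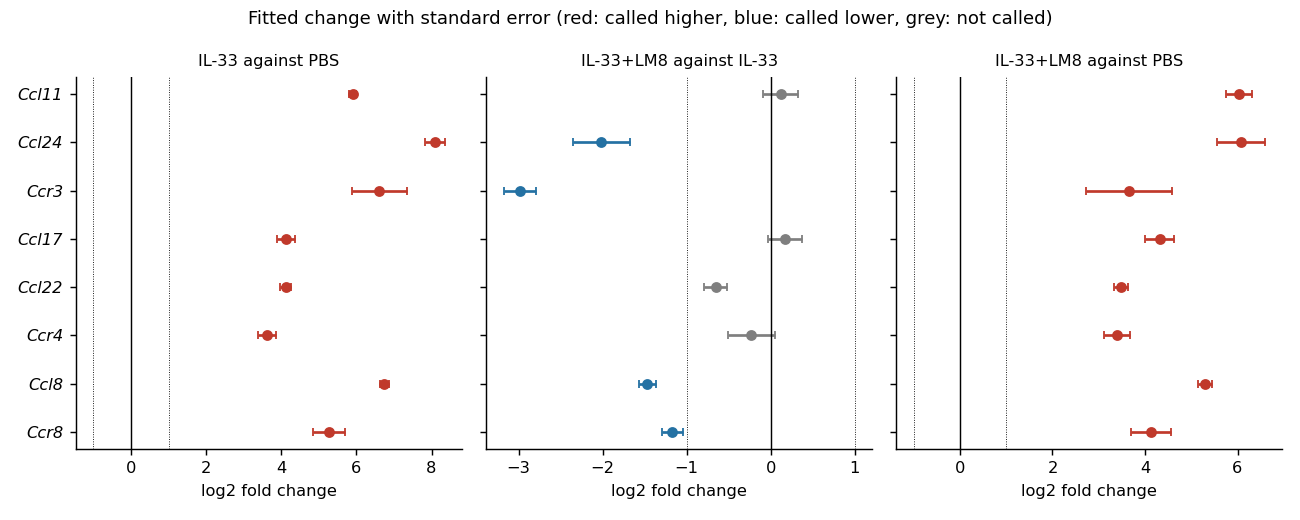
Fitted log2 fold change (x axis) with its standard error for 8 of the genes (y axis) in the 3 comparisons, with dotted lines at the minimum change of 1 in either direction. Ccl1 is left out because its PBS counts are 0. All 8 lie right of the line in both comparisons with PBS, and Ccr3, Ccl24, Ccl8 and Ccr8 lie left of it in IL-33+LM8 against IL-33.

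Ordered by mean FPKM, the genes changed places between the groups. In PBS lungs Ccl17 (7.70 ± 2.66 FPKM, SD, n = 3) and Ccl22 (5.55 ± 0.788) overlapped at the top, above Ccl11 (1.69 ± 0.201). Below these, Ccl8, Ccl24, Ccr8 and Ccr4 overlapped their neighbours within that run, and Ccr3 and Ccl1, apart from Ccr4, overlapped at the bottom. In IL-33 lungs Ccl24 (176 ± 12.1) was above Ccl17 (133 ± 12.1) without overlap, followed by Ccl11 (101 ± 1.86), Ccl22 (95.7 ± 11.9) and Ccl8 (91.9 ± 7.22), which overlapped their neighbours in the order. Ccr8 (19.1 ± 2.43), Ccr3 (5.15 ± 0.678), Ccr4 (3.21 ± 0.779) and Ccl1 (0.293 ± 0.263) followed without overlap. In IL-33+LM8 lungs Ccl17 (149 ± 43.8) and Ccl11 (108 ± 33.9) overlapped at the top, then Ccl22 (60.3 ± 9.52), Ccl24 (43.0 ± 20.7) and Ccl8 (33.0 ± 3.57) overlapped, and Ccr8 (8.44 ± 0.835), Ccr4 (2.71 ± 0.900), Ccr3 (0.643 ± 0.129) and Ccl1 (0.111 ± 0.0800) were each apart. Ccr3 thus stood above Ccr4 in each IL-33 mouse and below it in each IL-33+LM8 mouse.

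The other ligands that bind CCR3 were read beside the eotaxins. Of 4 such genes, Ccl7 was higher with IL-33 (log2 fold change 3.44, edgeR adjusted p = 0.00093) and stood at 0.02 between IL-33+LM8 and IL-33. Ccl5 (0.10 with IL-33) and Ccl28 (-1.32, edgeR adjusted p = 0.098) were not called in any comparison, and Ccl26 was under the filter on low counts. Ccl7 was also called against PBS in IL-33+LM8 lungs (3.48). Of 5 atypical receptors, which take up chemokines without G protein signalling or present them, Ackr1 was higher with IL-33 (2.55, edgeR adjusted p = 0.031), Ackr4 (-2.17) and Ccrl2 (-1.24) were lower, and Ackr2 (-0.18) and Ackr3 (-0.08) were not called. None of the 5 was called between IL-33+LM8 and IL-33, where 3 had an edgeR adjusted p under 0.05 and a positive change (Ackr2 0.74, Ccrl2 0.71 and Ackr4 1.00, which was under the minimum before rounding), and Ackr4 was lower against PBS (-1.16).

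Among the 13 other CC ligands, of which 12 passed the filter on low counts, 8 were higher with IL-33 and 0 lower, with Ccl9 (4.64), Ccl2 (3.88), Ccl7 (3.44) and Ccl12 (3.27) the furthest on the log2 scale. Ccl9 (-1.94), Ccl3 (-1.81) and Ccl6 (-1.45), which encode ligands of CCR1, were lower with LM8, and 7 were higher in IL-33+LM8 than in PBS lungs. The median log2 fold change of the 12 was 2.87 with IL-33 and -0.17 with LM8, beside -0.01 for all genes in both comparisons. Of 7 other CC receptors, 6 passed the filter and 5 were higher with IL-33, led by Ccr1 (3.04), Ccr2 (2.72) and Ccr7 (1.85). None was called with LM8, where Ccr1 (-0.65), Ccr2 (-0.78), Ccr6 (-0.999) and Ccr7 (-0.93) had an edgeR adjusted p under 0.05, and 3 stayed higher than in PBS. The median of the 6 was 1.85 with IL-33 and -0.72 with LM8.

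**Figure D4:**
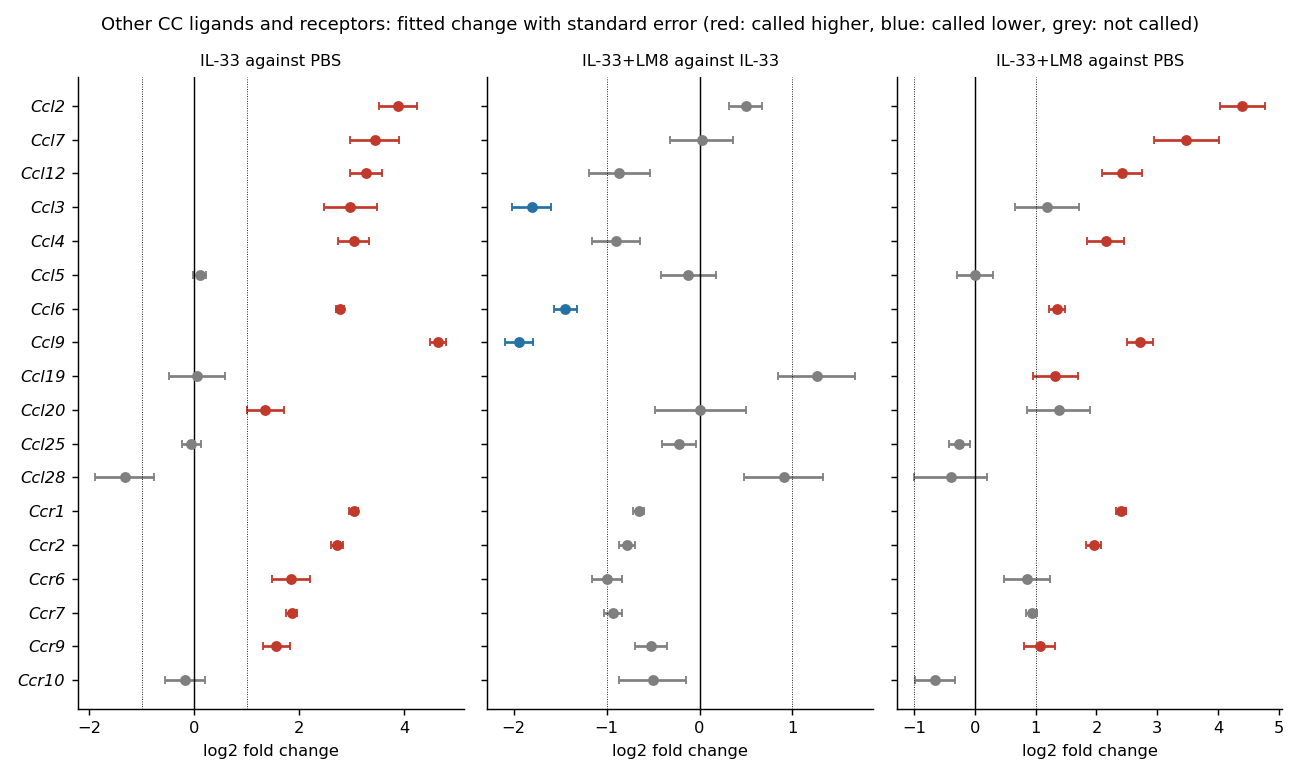
Fitted log2 fold change (x axis) with its standard error for the other CC ligands and receptors reported that passed the filter on low counts (y axis), in the 3 comparisons, with dotted lines at the minimum change of 1. In IL-33+LM8 against IL-33, Ccl3, Ccl6 and Ccl9 are called lower and none is called higher.

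The genes beside the chemokine genes on the chromosomes were read in the same way. On chromosome 11, Ccl2, Ccl7 and Ccl12, which lie next to Ccl11 and Ccl8, were all higher with IL-33 and with IL-33 and LM8 (2.42 to 4.40 on the log2 scale against PBS), and none was called between IL-33+LM8 and IL-33 (0.50, 0.02 and -0.86). On chromosome 8, Cx3cl1, which lies between Ccl22 and Ccl17, was lower with IL-33 (-1.09, edgeR adjusted p = 0.00028), while its neighbours on either side rose. Ciapin1 (0.28) and Coq9 (-0.06) were not called, 0 of these 3 were called in either comparison of IL-33+LM8 lungs, and Ccl26, which neighbours Ccl24 on chromosome 5, was under the filter. Of 7 genes near Ccr3, 6 passed the filter and 5 were higher with IL-33 (Ccr1, Ccr2, Ccr9, Cxcr6 and Xcr1), while Fyco1 was not called. Cxcr6 (-1.12) was lower with LM8, and 5 were higher in IL-33+LM8 than in PBS lungs.

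Of 11 genes of type 2 cytokines, their receptors and signal carriers, 10 passed the filter. Il13 (7.16), Il5 (5.59), Il1rl1 (3.90), Il33 (2.82) and Il2rg (1.20) were higher with IL-33, and Il4 (0.50), Il4ra (0.39), Il13ra1 (0.09), Stat6 (-0.16) and Myd88 (0.56) were not called. Il13 and Il5 had only 0 to 4 and 4 to 18 counts in PBS lungs, and the 95% intervals of their changes were 4.87 to 9.45 and 4.10 to 7.07. Il9 was under the filter. With LM8, Il1rl1, which encodes the IL-33 receptor, was the only one of the 10 called, lower than in IL-33 mice (-1.37, edgeR adjusted p = 0.00035). The values of Il13 (-0.38, edgeR adjusted p = 0.61) and Il5 (-0.86, edgeR adjusted p = 0.014) were not called there, and 4 of the 10 stayed higher than in PBS.

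Neutrophil markers were higher with LM8, unlike any of the 9 chemokine and receptor genes. Of 8, 7 were higher with IL-33, 6 were higher in IL-33+LM8 than in IL-33 lungs and 8 were higher in IL-33+LM8 than in PBS lungs, with summed FPKM of 28.7 to 35.1 in PBS, 195 to 219 in IL-33 and 920.3 to 1061 in IL-33+LM8 lungs. Of 6 markers of basophils and mast cells, Hdc was higher and Gata2 lower with IL-33, 0 were called with LM8 and Hdc stayed higher than in PBS (sums 48.7 to 54.5, 44.5 to 53.9 and 49.7 to 52.2). These sums were carried mostly by Gata2 (mean FPKM of 40.6, 17.8 and 30.6) and Hdc (8.78, 29.0 and 17.4). The 2 genes moved in opposite directions, so the similar sums do not show that the markers were unchanged. No marker of these lists was at 0 in a whole group, and their part in the chemokine values was not tested.

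The genes whose levels ran most alike with each chemokine or receptor were ranked by Pearson's r of log2(FPKM + 1) over the 9 mice, which share the step between PBS and IL-33 and are described here without a test. Pla2g4c, Chia1 and Slc26a4 ran with Ccl11 (r = 0.999, 0.998 and 0.998). Like Ccl11, they were at similar mean FPKM in IL-33 and IL-33+LM8 lungs, Chia1 at 566 and 543 and Slc26a4 at 84.3 and 75.0. Bhlhe40, Gatm and Il5 ran with Ccl24 (0.999, 0.998 and 0.998), and Il5 was at 0.0807, 4.05 and 2.21 mean FPKM in PBS, IL-33 and IL-33+LM8 lungs. Ighv11-2, an immunoglobulin heavy chain segment, ran with Ccr3 (0.998), with 0.570, 119 and 2.97 mean FPKM in the same order, followed by Cenpp and Lipa (0.997 each).

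For Ccl17 the nearest were D730005E14Rik, Retnla and Mapk13 (r = 0.997, 0.994 and 0.994), and Retnla, encoding RELMα, stood at 66.4, 10208 and 7992 mean FPKM in PBS, IL-33 and IL-33+LM8 lungs. Ccl22 was nearest to Plac8, Arhgdib and Lcp1 (0.999, 0.998 and 0.997), and Ccr4 to Hspa14, Capn9 and Gm7551 (0.998, 0.995 and 0.994). Ccl8 was nearest to Chil3, Ccr1 and Wdfy4 (0.998 each), where Chil3, a chitinase-like protein of macrophages, was at 203, 4354 and 1951 mean FPKM. Ccr8 was nearest to Fxyd5, Fcrls and Irf4 (0.997, 0.997 and 0.996), and Irf4, a transcription factor of lymphocytes and myeloid cells, was at 1.80, 13.8 and 8.25 mean FPKM. Ccl1, at its low counts, had no gene as close, the nearest being Kcnt2 at 0.954, followed by 5730471H19Rik (0.949) and Gm10269 (0.948).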

How the data were processed

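The members and gene lists were chosen with earlier results of these data known. The authors deposited 1 table with a read count and an FPKM per gene and mouse, made by their sequencing company. The submitters' processing notes name HISAT2 2.0, StringTie 1.3.0, Bowtie 0.12.2 and mm10, although the table's coordinates are not those of GRCm38; annotation and counting step are not given in the sources used here. Separate mice are taken from the labels, and libraries of a group differed by 26.3 to 65.7 times the sampling variance per gene, so none was a copy.

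Counts of the 6 mice compared were tested with edgeR 4.0.16 (glmQLFTest, TMM, R 4.3.3) over genes with a mean count of at least 10 over 9 mice, since long receptor genes of low count fall under an FPKM minimum. This left 21519, 21520 and 21518 genes for IL-33 against PBS, IL-33+LM8 against IL-33 and IL-33+LM8 against PBS. A call needed 0.05 on the adjusted p and 1 on the log2 fold change, whose standard error is its size over the root of F. Floors of 3 counts cover counting error only. Ratios were compared by exact permutation. The fits were tested on simulated data.

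Named were all members, every gene of chemokine and cytokine lists of up to 5, called genes of largest change in longer ones, and for each member the 3 genes of highest r. Marker lists were counted, and any marker or further gene named was picked with its values known. A gene of the lists is not reported here and was left out of their counts. DESeq2 1.42.0, limma 3.58.1, other scalings, filters and thresholds, a joint fit, a replicate block and leaving out each mouse were the alternatives. Deviations from group means correlated between same-numbered mice at 0.31, 0.32 and 0.67 in IL-33+LM8 against PBS, and at -0.42 to 0.28 in the other comparisons. The former passes the rule used for pairing (every pair over 0.1). Unlike numbers correlated as highly, IL-33 replicate 1 with PBS replicate 3 at 0.65 and with IL-33+LM8 replicate 3 at 0.67. These 3 libraries had the highest total counts of their groups (66029783, 73869252 and 90607218). The rule thus does not show that mice were paired, and no label says what a number shares. Motifs were searched on both strands of RefSeq promoters (GRCm38.p6), present for 7 of the 9 members.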

Additional observations from a re-analysis of the deposited data

How the results depend on the processing

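Of the single-gene values under the alternatives, 416 kept their direction and call, 10 lost a call, 1 gained one and 2 changed sign. The 2 were not called before or after: without IL-33+LM8 replicate 2, Ccl11 was at -0.12 and Ccl17 at -0.063 on the log2 scale between IL-33+LM8 and IL-33, within ranges of -0.12 to 0.34 and -0.063 to 0.37 when each mouse was left out. The lost calls were all of Ccr3 and Ccl1, against PBS. The number of members called was 8 to 9 with IL-33, 4 to 5 between the groups given IL-33 and 7 to 9 with LM8 against PBS over all alternatives, with 9 to 9, 4 to 4 and 7 to 9 when each mouse was left out. Ccl22 was the call gained when no minimum fold was set.

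Counts over all genes moved with the threshold and the test. Without a minimum fold they were 9412 (4848 higher, 4564 lower), 4309 (2090 higher, 2219 lower) and 4843 (2834 higher, 2009 lower) in the 3 comparisons, and limma on log2(FPKM + 1) gave 1739, 437 and 587, against 3394, 1033 and 1478. Leaving out each mouse gave 3055 to 3371, 825 to 1032 and 1135 to 1622. On log2(FPKM + 1), limma gave Ccr3 0.64 in IL-33+LM8 against PBS and Ccl1 0.35 and 0.15, since that pseudocount is large beside their FPKM, and Ccl1 could not be tested with a minimum mean FPKM of 0.5. The replicate block called 9, 4 and 9 members and 3103, 837 and 1716 genes in all, and changed no call of a member. No label says that same-numbered samples share more than a number in any comparison. Among the 9 genes, Ccl1, at 6 to 85 counts after IL-33, and Ccr3 in PBS lungs, at 0 to 20 counts, are the values that depth limits most. Outside the 9, Il13 and Il5 in PBS lungs, at 0 to 4 and 4 to 18 counts, are limited in the same way.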
